A study of Oryza sativa with 2 samples.

Results

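The strigolactone and tillering genes of rice were taken from the transcriptome of seedlings of the indica cultivar 93-11. They were chosen by locus ID, as 8 named genes: *D27*, *D17*, *D10*, *D14*, *D3*, *D53*, *TB1* and *IPA1* (also called *SPL14*). Of these, 6 had a row in both tables, among 37896 listed rows, and *D27* (LOC_Os11g37650) and *D10* (LOC_Os01g54270) had none and were not analysed here. Whole wild-type plants, 3 weeks old, were the source of the RNA in both libraries, labelled replicate 1 and replicate 2. The plants were grown on Yoshida solution with 10 h of light at 800 μmol per square metre and second and 14 h of dark. No treatment, mutant or second cultivar is included, so there is no contrast between conditions and no test between groups. Nothing in the labels tells if separate plants were used for each replicate, and the spread between the libraries may therefore be technical.

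Strigolactones are carotenoid-derived hormones, made to a large part in roots, that hold axillary buds back and so limit the number of tillers, the side shoots of a grass. In the plastid, the isomerase D27 and the carotenoid cleavage dioxygenases D17 and D10 act in sequence to make carlactone, the precursor of the hormones. The hormone is bound and hydrolysed by D14, an α/β-hydrolase receptor, which then joins the F-box protein D3 to mark the repressor D53 for degradation. Among the transcription factors downstream, IPA1 is an SBP-box protein that D53 holds inactive, and TB1 is a TCP protein that acts in axillary buds to stop their outgrowth.

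Levels are given as FPKM, fragments per kilobase of transcript scaled to the mapped total of the library, which allows levels of different genes to be set side by side. The FPKM values of all loci summed to 741624 in replicate 1 and 668305 in replicate 2. The number of fragments behind each value is unknown, so no counting interval could be given. The tissue label could not be checked against shoot and root markers, because no marker symbol was tied to an ID of the tables. In RNA from whole plants, fewer cells that express a gene and less RNA per cell cannot be told apart.

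Of the 6 listed genes, the repressor *D53* and the receptor *D14* had the most abundant transcripts in both libraries, and the bud factor *TB1* was listed at 0. A level of 1 FPKM or more in both libraries was found for 4 of the 6 listed genes, *D53*, *D14*, *D3* and *D17*, beside 53.1% of all loci. *IPA1* reached this level in only 1 library, as did 5.67% of all loci; that library was replicate 2, as for 3.64% of all loci. The 0 of *TB1* in both libraries was shared by 26.2% of all loci. All 6 genes together had 97.7 FPKM in replicate 1 against 90.02 FPKM in replicate 2.

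**Figure D1:**
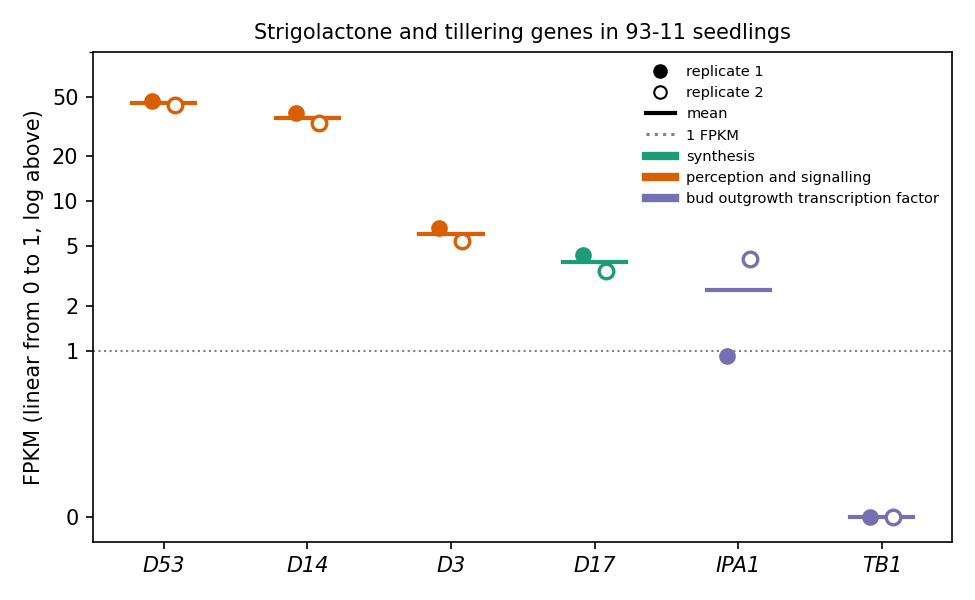
FPKM of the 6 listed genes in replicate 1 (filled points) and replicate 2 (open points), with the mean as a bar, on an axis that is linear from 0 to 1 FPKM and logarithmic above; colours give the role of the gene. *D53* and *D14* lie at 33.1 FPKM or higher, *D3* and *D17* between 3.41 and 6.63 FPKM, the 2 points of *IPA1* lie on either side of 1 FPKM, and *TB1* lies at 0.

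Of the 3 chosen genes of hormone synthesis, a level could be given for *D17* alone. *D17* (LOC_Os04g46470, chromosome 4), which encodes the dioxygenase that makes the first cleavage, had 4.37 FPKM in replicate 1 against 3.41 FPKM in replicate 2. Both values were above 1 FPKM and low against the median of 10.4 FPKM over the loci detected in both libraries. The mean, 3.89 ± 0.682 FPKM (SD, n = 2), stood at the 57.5 percentile of all loci and at the 20.7 percentile of the loci detected in both libraries. On its chromosome, 57.8% of the 3317 loci lay below it. The level of synthesis as a whole is not given by this gene. It was 1 of the 3 synthesis genes chosen here, and the other 2 had no row.

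*D53* (LOC_Os11g01330, chromosome 11), the repressor that the hormone signal removes, had the highest level of the 6 genes. It had 46.7 FPKM in replicate 1 against 43.97 FPKM in replicate 2, a mean of 45.3 ± 1.94 FPKM (SD, n = 2). The replicates were close, and only 2537 loci had a higher mean, which put *D53* at the 93.3 percentile of all loci and the 96.6 percentile of the 2519 loci of chromosome 11. A gene called *D53-L* is annotated on chromosome 12 in RefSeq, and the start of chromosome 11, where *D53* lies, is known to have a closely similar copy there. The sources used here do not tell how fragments that fit both copies were assigned, so the level of *D53* is uncertain to that extent.

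*D14* (LOC_Os03g10620, chromosome 3), the receptor, followed at 39.02 FPKM in replicate 1 against 33.1 FPKM in replicate 2. Both values were below both values of *D53*, and the mean was 36.05 ± 4.20 FPKM (SD, n = 2), at the 91.4 percentile of all loci. The ratio of *D53* to *D14* within a library, which does not depend on how libraries are scaled, was 1.20 in replicate 1 and 1.33 in replicate 2. By these values, the transcripts of repressor and receptor were within a narrow ratio of each other in both libraries. The ratio carries the uncertainty given above for the level of *D53*, which likeness between the libraries does not reduce.

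*D3* (LOC_Os06g06050, chromosome 6), the F-box partner of the receptor, stood well below both. It had 6.63 FPKM in replicate 1 against 5.43 FPKM in replicate 2, a mean of 6.03 ± 0.854 FPKM (SD, n = 2). This mean stood at the 64.01 percentile of all loci. Among loci detected in both libraries it stood at the 32.7 percentile, below their median of 10.4 FPKM. *D14* exceeded *D3* by a factor of 5.88 in replicate 1 and 6.10 in replicate 2, and *D53* exceeded *D3* by a factor of 7.04 and 8.10. Of the summed level of the 3 genes of perception and signalling, 87.4 ± 7.002 FPKM (SD, n = 2), *D53* made up 51.9% ± 1.94, *D14* 41.2% ± 1.51 and *D3* 6.88% ± 0.425. These shares varied little between the libraries. They and the factor of *D53* over *D3* carry the uncertainty given above for the level of *D53*. *D3* was in turn above *D17* by a factor of 1.52 in replicate 1 and 1.59 in replicate 2, the lowest *D3* value lying above the highest *D17* value.

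*IPA1* (LOC_Os08g39890, chromosome 8), the SBP-box factor that shapes plant architecture, was the gene whose replicates were furthest apart. It had 0.966 FPKM in replicate 1 against 4.13 FPKM in replicate 2, a mean of 2.55 ± 2.24 FPKM (SD, n = 2). The value in replicate 1 lay just under 1 FPKM, and the value in replicate 2 lay inside the detected range, above that of *D17* in the same library. The SD was nearly as large as the mean, so the libraries do not fix the level of *IPA1*. *D3* exceeded *IPA1* by a factor of 6.87 in replicate 1 and of 1.31 in replicate 2.

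*TB1* (LOC_Os03g49880, chromosome 3), the TCP factor of axillary buds, was listed at 0 FPKM in replicate 1 against 0 FPKM in replicate 2. Both libraries gave the same result, and no fold against another gene is given. Whether transcripts were present below the reach of these libraries was not detectable from FPKM values.

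By mean level the order was *D53*, *D14*, *D3*, *D17*, *IPA1* and *TB1*. The ranges of the 2 libraries did not overlap between *D53* and *D14*, *D14* and *D3*, *D3* and *D17*, or *IPA1* and *TB1*, both as deposited and after scaling the libraries to the same total. The ranges of *D17* and *IPA1* overlapped, so their order is not set: *D17* was higher in replicate 1 and *IPA1* in replicate 2. The place of *D53* above *D14* carries the uncertainty given above for the level of *D53*.

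**Figure D2:**
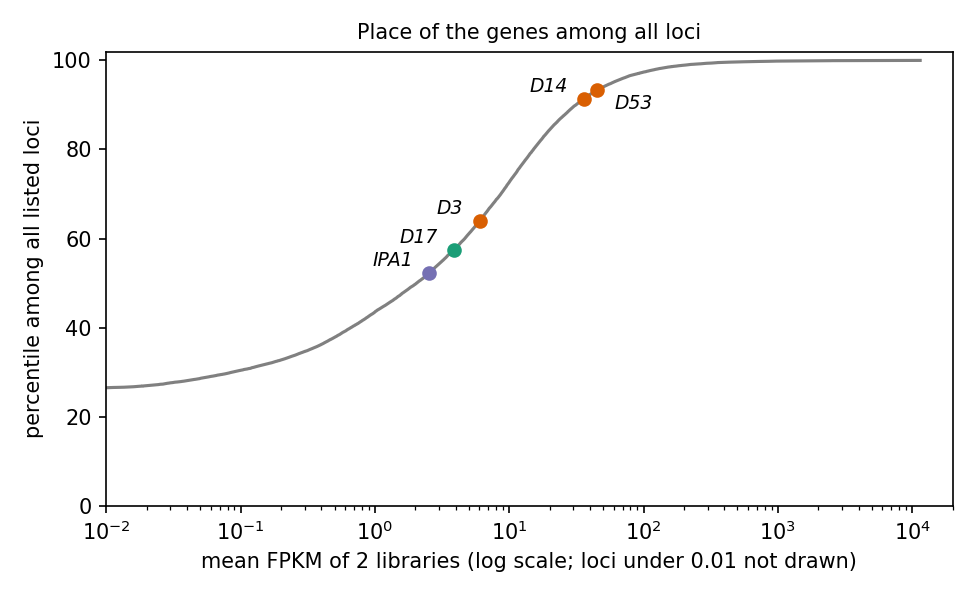
Percentile among all listed loci (vertical axis) against mean FPKM of the 2 libraries on a log scale; the grey line holds all loci from 0.01 FPKM, and the points are the 5 genes above 0. *IPA1*, *D17* and *D3* lie on the middle of the curve, at the 52.4, 57.5 and 64.01 percentiles, and *D14* and *D53* on its upper part, at the 91.4 and 93.3 percentiles. The percentiles include the 26.2% of loci listed at 0 in both libraries.

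Between the replicates, *D53*, *D14*, *D3* and *D17* differed little and *IPA1* differed more. As deposited, these 4 genes were higher in replicate 1, by factors of 1.06 for *D53*, 1.18 for *D14*, 1.22 for *D3* and 1.28 for *D17*. The same direction was seen at 55.2% of the 21411 loci that averaged at least 1 FPKM, and replicate 1 had the larger FPKM sum. Scaling to the same total shifted every log2 ratio of replicate 1 over replicate 2 by -0.15 before the pseudocount. Scaled to the same total, the log2 ratio of FPKM + 1, replicate 1 over replicate 2, was 0.17 for *D17*, 0.12 for *D3*, 0.09 for *D14* and -0.06 for *D53*. The sign for *D53* thus depended on the scaling, and each of these values was smaller in size than the median of the 1000 loci nearest in mean level, which ran from 0.23 near *D53* to 0.29 near *D17*.

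*IPA1* was lower in replicate 1, with a log2 ratio of -1.48 on the same scale. Without the added 1, the value in replicate 2 was 4.28 times that in replicate 1 as deposited and 4.75 times after scaling. Of the 5 genes that averaged at least 1 FPKM, *IPA1* was the 1 gene more than 2-fold apart, beside 8.97% of all loci at this level, and 7.29% of loci were apart in its direction, higher in replicate 2. Among the 1000 loci nearest to *IPA1* in mean level, the median difference was 0.34 (log2) and 90% of loci differed by less than 1.15. With a single library on each side, the difference has no replicate check.

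**Figure D3:**
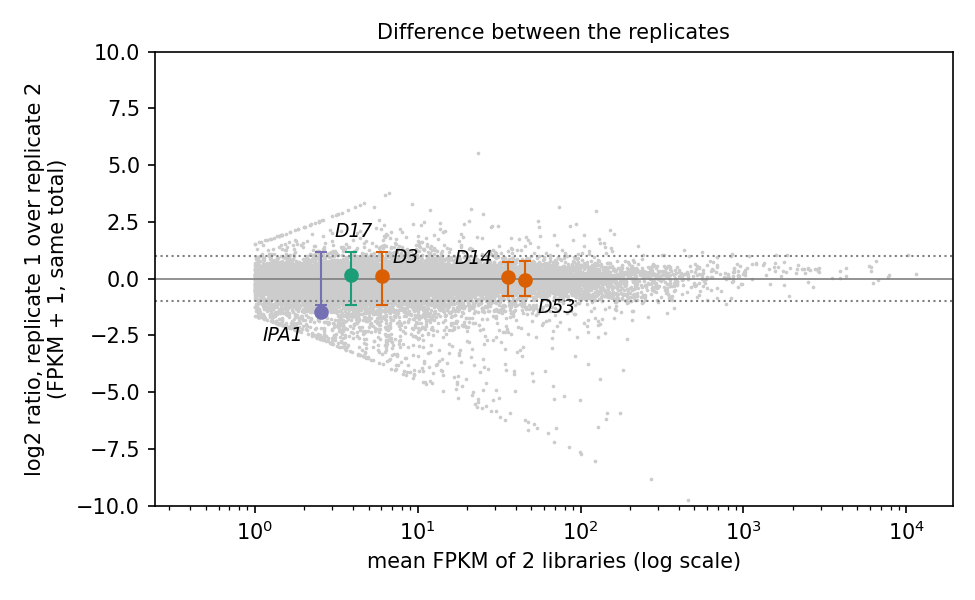
Log2 ratio of FPKM + 1, replicate 1 over replicate 2, after scaling to the same total, against mean FPKM on a log scale; grey points are all loci that averaged at least 1 FPKM, dotted lines mark a 2-fold difference, and each vertical bar spans the range that holds 90% of the 1000 loci nearest in level. *D17*, *D3*, *D14* and *D53* lie near 0 inside their bars, and *IPA1* lies below its bar at -1.48.

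The genes also differed in how they stood against the loci around them, taken as the 5 listed loci on either side by locus number. *D53* and *D14* were above all 10 of theirs, whose highest means were 20.3 FPKM around *D53* and 7.51 FPKM around *D14*. *D3* lay within its surroundings, with 7 of 10 loci above it and all 10 detected in both libraries. *D17* had 4 of 10 loci above it and 5 listed at 0 in both libraries, and *IPA1* had 5 above it and 2 at 0. *TB1* lay among loci that were mostly at 0, with 6 of 10 at 0 in both libraries, including the next on either side, although the highest had a mean of 38.4 FPKM. Of all loci, 26.2% were at 0 in both libraries and 53.1% were detected in both. How a gene stands against 10 loci follows in part from its own level.

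For the 2 genes with no row, the nearest listed loci were detected in both libraries, as were 6 of 10 loci around *D27* and 7 of 10 around *D10*. The next listed locus on the low side of *D27* had 33.5 FPKM in replicate 1 against 39.9 FPKM in replicate 2, and the next on the high side had 1.48 and 1.47 FPKM. Around *D10*, the next listed locus had 2.12 FPKM in replicate 1 against 1.46 FPKM in replicate 2 on the low side, and 27.3 and 33.8 FPKM on the high side. These values are those of the neighbours and were not taken as a level of *D27* or *D10*. Whether they bear on either gene was not tested.

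**Figure D4:**
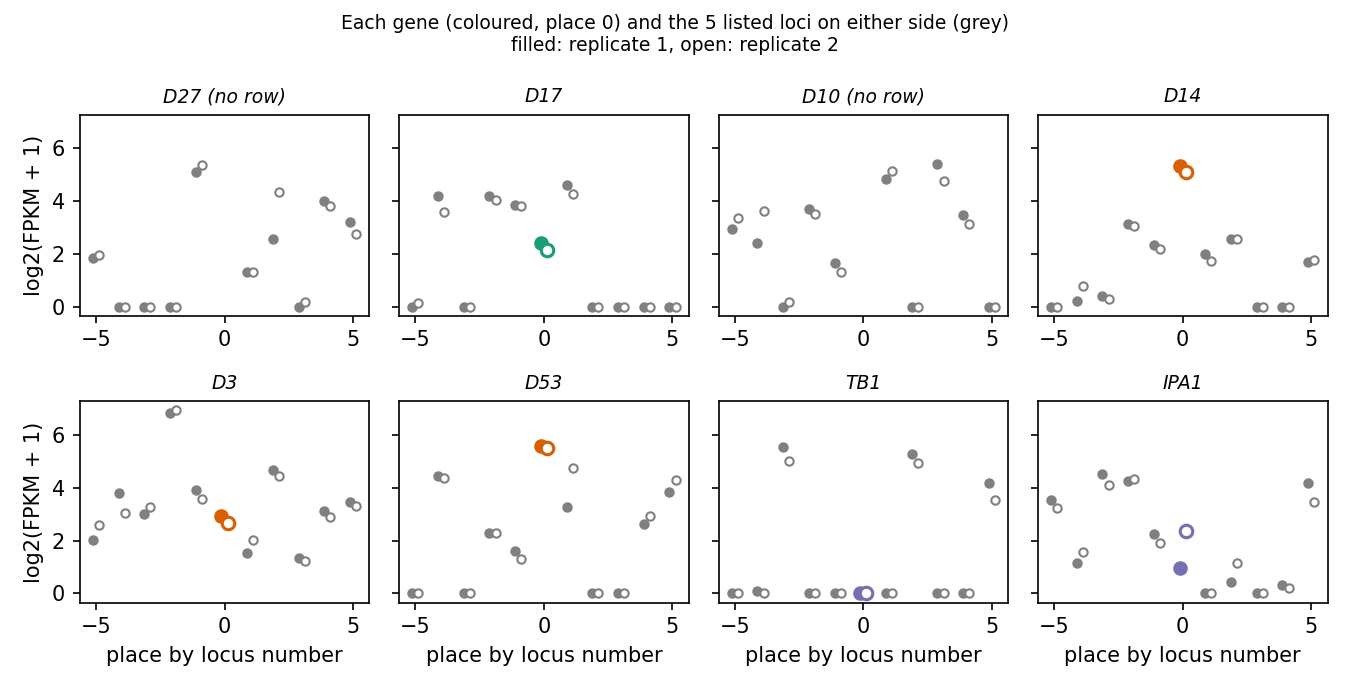
Log2(FPKM + 1) of each gene (coloured, place 0) and of the 5 listed loci on either side by locus number (grey), with replicate 1 filled and replicate 2 open. *D53* and *D14* stand above all their neighbours, *D3*, *D17* and *IPA1* lie among theirs, and *TB1* lies at 0 with 6 of its 10 neighbours; *D27* and *D10* have no point.

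The loci closest in level over the 2 libraries were found by the distance in log2(FPKM + 1). Nearest to *D53* was LOC_Os09g08390 on chromosome 9, at 46.8 FPKM in replicate 1 against 44.5 FPKM in replicate 2. *IPA1* was, by mean only, the lowest gene above 0 in both libraries. Nearest to it was LOC_Os05g51190 on chromosome 5, at 0.946 FPKM in replicate 1 against 4.04 FPKM in replicate 2. Within a distance of 0.1 there were 78 loci around *D53* and 11 around *IPA1*. A likeness over 2 libraries of the same group reflects only the level in each library, and so also the gap between the replicates.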

How the data were processed

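Poly(A) RNA of 2 libraries of 93-11 seedlings was sequenced on an Illumina instrument after an NEBNext preparation, per the labels' protocols. Per the file headers, the authors deposited FPKM values by locus ID, in a separate table for each library. The submitters' processing notes name TopHat2 and Cufflinks. Build, annotation, counting settings and filters were not given in the sources used here, and fragments shared by similar genes may have been divided or dropped. The 8 genes were matched by exact ID. Their names come with the list of IDs. RefSeq (assembly ASM3414082v1) holds 5 of the names, each on the chromosome in the ID, but ties no locus ID to them. None of 38 further symbols sought received a value, because RefSeq either lacked the symbol or tied no locus ID to it. These were symbols of tillering genes, among them *SPL14*, the other name of *IPA1*, and of shoot and root markers. Levels are means ± SD over the libraries. Detection meant 1 FPKM or more. Ratios between libraries used log2(FPKM + 1) after scaling to the same total, so folds of low genes are understated. The calculation was tested on simulated data, with changes set only at loci of a higher mean than *D3*, *D17* and *IPA1*. It was thus not tested at the levels of these genes. No test between groups was possible with 1 group. The genes and lists were chosen with earlier results of these data known. The genes named were the listed members, and the locus nearest in level to the highest and to the lowest member, by mean, above 0 in both libraries. Values were computed with pandas 2.3.3 and numpy 2.4.6 in Python 3.11.15 and drawn with matplotlib 3.10.9.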

Additional observations from a re-analysis of the deposited data

How the results depend on the processing

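With 1 group, no paired analysis was possible. Under other settings with both libraries, 44 values moved by less than the replicate spread (counts: at most 1.5 times). Another 8 moved by more and 2 changed sign. The 44 do not show stability. Scaling lowered replicate 1 and raised replicate 2, so means could hardly move, and the count limit let 5 or 3 pass for 4. A level from 1 library says nothing of stability. That of *IPA1*, 2.55 FPKM as the mean, was 4.13 FPKM without replicate 1 and 0.966 FPKM without replicate 2. The log2 ratio of *D53*, replicate 1 over replicate 2, became 0.0856 as deposited and 0.0202 with scaling by the median of ratios. That of *IPA1* was -2.13 with a pseudocount of 0.1 and -2.24 with 0.01, by the construction of the added value. At a limit of 4-fold, 0 genes were apart with the pseudocount of 1, although the FPKM values of *IPA1* differed 4.75-fold at the same total. Among loci detected in both libraries only, the percentiles were 20.7 for *D17*, 32.7 for *D3*, 83.9 for *D14* and 87.5 for *D53*. *IPA1* and *TB1* are outside that set, and *TB1* was given no percentile, being tied at 0. The summed level of perception and signalling was 42.1 FPKM without *D53*. The count of genes detected in both libraries was 4, with 5 at 0.1, 0.5 or 0.9 FPKM (the last chosen after seeing the data) and 3 at 5 FPKM. The share of all loci was not taken at these other limits or at 4-fold, so these counts cannot be read against it. Without replicate 1, 4 of the 6 genes kept their place, *D17* and *IPA1* changing places. The synthesis sum was not run without its highest gene, *D17*, the only one listed. Without fragment counts, nothing can be said of the depth behind *IPA1* and *TB1*.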
